A study of Drosophila melanogaster with 8 samples.

Results

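The genes described here are the diuretic hormones of Drosophila melanogaster, the glycoprotein hormone subunits and their receptors, 8 genes chosen by name: Dh44, Dh44-R1, Dh44-R2, Dh31, Dh31-R, Gpb5, Gpa2 and Lgr1. Of these, 5 have a value among the 11773 genes measured: Dh44, Dh44-R1, Dh31, Gpb5 and Gpa2. The other 3, Dh44-R2, Dh31-R and Lgr1, were not analysed here. All 8 libraries come from Dh44 neurons of the adult brain, and there is no second cell type, diet or genotype to compare them with. The flies carried DH44-GAL4 and UAS-mCD8gfp, so a membrane-bound green fluorescent protein marked every cell in which the Dh44 driver was active, and they were 5 days old on normal food. A driver line can also be active in cells that make little of the hormone, and no label gives sex or says which animal a library came from. GFP-positive cells were picked from dissected brains by micropipette, and their RNA was amplified and sequenced with a SMART-seq2 type protocol. The labels speak both of individual cells and of pooling, so the number of cells behind a library is unknown here.

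Dh44 is related to vertebrate corticotropin-releasing factor and Dh31 to calcitonin. Both are neuropeptides that stimulate fluid secretion by the Malpighian tubules, the insect kidney, and both act through G protein-coupled receptors of the secretin family that raise cyclic AMP. Dh44 neurons of the pars intercerebralis are also known for circadian output and for sensing nutrients. Gpa2 and Gpb5 are the alpha and beta subunits of a glycoprotein hormone related to vertebrate thyrostimulin, which acts as a heterodimer on the leucine-rich repeat receptor Lgr1.

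Levels are FPKM, a fragment measure scaled by the length of a gene's exons and by how many fragments of a library were mapped, as deposited by the authors, so levels of different genes are compared per length of exon. Read depth is unknown and an exact 0 need not mean absence: Tbp, the TATA-binding protein needed in all cells, was listed at 0 in 5 libraries. Whether such a 0 is a missed transcript or a failed estimate cannot be told apart here. A value of 0 is therefore given as listed at 0. A gene was counted as detected at 1 FPKM or more in at least 4 libraries. Summed FPKM ran from 812029 to 935440 per library, and the number of genes listed above 0 from 2679 in library 1 to 5774 in library 4, with 4295 in library 8. Libraries 1 and 8 stand apart from the rest, since they also held the largest shares of fat body transcripts (6.99% and 7.31% of summed FPKM, against 1.53% to 4.86% in the other 6). Results that rest on them are given with and without them.

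The 5 measured genes fell on separate levels. Dh44 and Gpb5 were high in every library, Dh44-R1 was present in 4 and listed at 0 in 4, Dh31 reached 1 FPKM in 2, and Gpa2 was listed at 0 throughout. Of the 5, 3 were detected (Dh44, Gpb5 and Dh44-R1), and 2 of them, Dh44 and Gpb5, reached 1 FPKM in all 8 libraries. Of all 11773 genes, 41.2% were detected and 11.0% reached 1 FPKM in all 8 libraries. With 5 genes these shares are a description only. The cells were picked by activity of a Dh44 driver, so a high Dh44 level is not an independent finding.

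**Figure D1:**
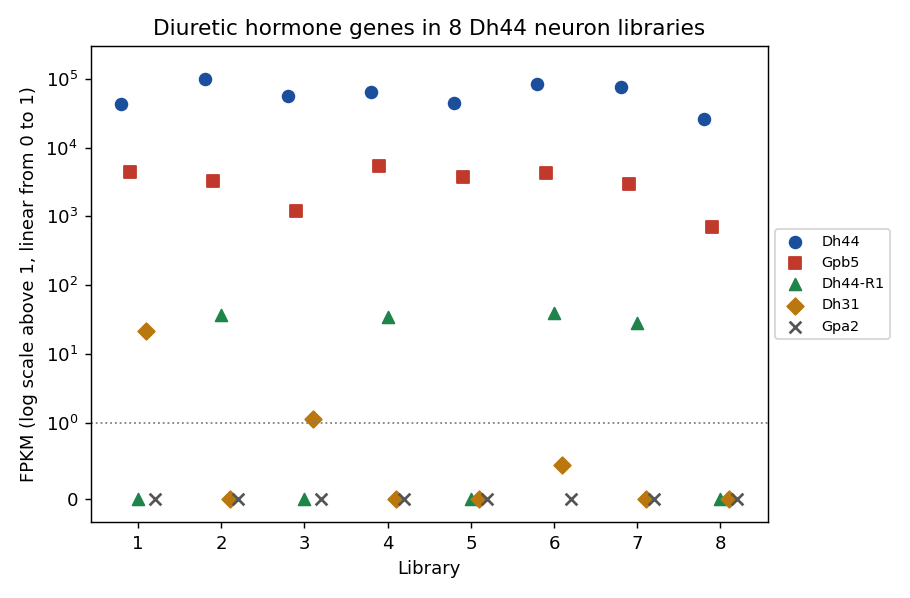
FPKM of the 5 measured genes in each of the 8 libraries, 1 point per gene and library, on an axis that is logarithmic above 1 FPKM and linear from 0 to 1. The dotted line marks 1 FPKM. Dh44 lies above Gpb5 in all 8 libraries, Dh44-R1 is at 28.2 to 40.0 FPKM in libraries 2, 4, 6 and 7, and Gpa2 is at 0 throughout.

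Dh44, the peptide hormone itself, had a lowest value of 26309 FPKM in library 8, a median of 60073 and a highest value of 99818 in library 2. Between them lay 42712 FPKM in library 1, 44372 in library 5, 56776 in library 3, 63370 in library 4, 75624 in library 7 and 85013 in library 6. The highest library was 3.79 times the lowest, and 2.25 times once libraries 1 and 8 were left out. Dh44 took 11.1% of the summed FPKM of library 2 and 2.81% of that of library 8. This single mRNA thus made up a sizeable part of each library and its own level weighs on every other FPKM value there. On the log2(FPKM + 1) scale its SD over the 8 libraries was 0.62, against a median SD of 1.08 over the 1300 genes at 1 FPKM or more in all 8. Of those genes, 15.4% varied less than Dh44. The gene (FBgn0012344) lies on the plus strand of chromosome 3R, from 9638182 to 9650706 in the assembly BDGP6.54, with 2402 bp of exon in 5 blocks. No other annotated gene overlaps its exons.

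The cells' label was checked against genes of peptide processing and secretion and against neuron markers. All 9 measured genes of peptide processing and secretion and all 9 measured neuron markers were detected, beside 41.2% of all genes. In the first list, dimm was listed at 0 in libraries 1 and 8, and Syt7 was at 0.263 FPKM in library 8. The same rule also called 9 of 10 photoreceptor markers, so detection alone does not settle the cell type. The neuron markers with the highest medians were fne, an RNA-binding protein of neurons, at 475 FPKM (92.5 to 789), and Appl, the fly amyloid precursor-like protein, at 293 FPKM (80.8 to 435). Together the 9 markers held 0.0539% of summed FPKM in library 8, 0.121% in library 1 and 0.181% to 0.227% in the other 6 libraries. In FPKM, Dh44 was lowest in the same pair of libraries. As a share of summed FPKM it was lowest in library 8, at 2.81%, but library 5, at 5.21%, lay under library 1, at 5.26%. The 6 measured fat body markers held their largest shares in libraries 8 and 1, with Yp1, a yolk protein, at 28705 and 21961 FPKM there, against a median of 10814 over all 8. Another yolk protein, Yp3, had a median of 8005 FPKM, and the fat body genes Fbp1 and Fbp2 were at or near 0, with a highest value of 1.23 FPKM for Fbp1 and 0 everywhere for Fbp2. The part of fat body transcripts in the lower Dh44 FPKM of libraries 1 and 8 was not tested. Here and below, fewer cells of a type and less RNA per cell cannot be told apart.

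Gpb5, the beta subunit, was the next gene down. Its lowest value was 699 FPKM in library 8, its median 3494 and its highest value 5333 in library 4. The values between were 1186 FPKM in library 3, 2923 in library 7, 3289 in library 2, 3700 in library 5, 4320 in library 6 and 4405 in library 1. Libraries 8 and 3 are the low ones and the other 6 lie within a narrower band. The highest was 7.63 times the lowest, and 4.50 times without libraries 1 and 8. By abundance Gpb5 ranked from 17 among all genes in library 4 to 166 in library 8, and 28 by median. Its SD on the log2(FPKM + 1) scale was 1.03, with 45.1% of the 1300 genes varying less. The gene (FBgn0063368) is a single exon of 765 bp on the plus strand of chromosome 2L, from 23311700 to 23312464. No exon of another annotated gene overlaps it.

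Dh44 exceeded Gpb5 in 8 of 8 libraries, but by an uneven factor. The ratio within a library, which does not depend on how that library was scaled, had a median of 22.8. It was lowest in library 1 at 9.70, followed by 11.9 in library 4 and 12.0 in library 5. It was highest in library 3 at 47.9, with 37.6 in library 8 and 30.4 in library 2. Over the 8 libraries the Pearson correlation of their log2(FPKM + 1) was 0.565 and the Spearman correlation 0.190. The Pearson value rested on few points: it was 0.0212 over 6 libraries without 2 and 8, the libraries farthest from the median of Dh44, and 0.196 without 1 and 8. The points share a scaling within each library, and no relation between the 2 hormone genes is read from them.

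**Figure D2:**
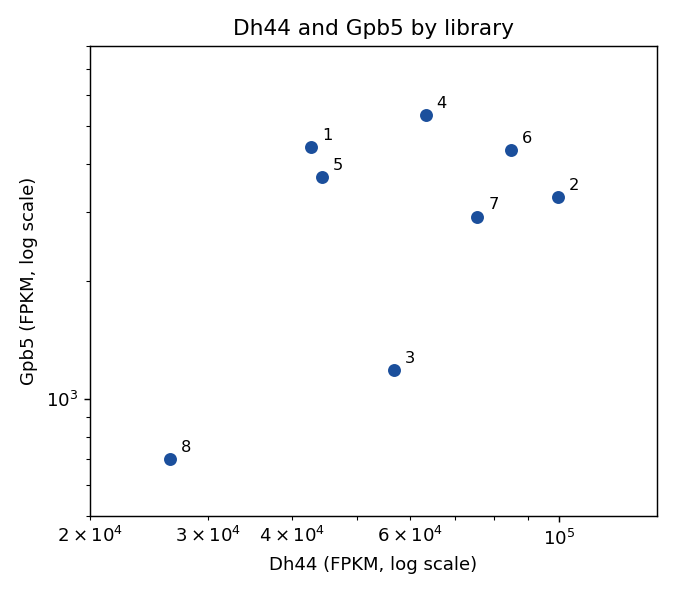
Gpb5 against Dh44 in FPKM, both axes logarithmic, 1 point per library with its number. Library 8 is lowest for both genes, and library 3 has a low Gpb5 (1186 FPKM) at a middling Dh44 (56776 FPKM).

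Neuropeptide precursors such as Dh44 are cut, trimmed and amidated in secretory vesicles, and both hormone genes were set against the genes of that machinery. The most abundant of these were 7B2, the helper protein of the prohormone convertase, at a median of 6498 FPKM (1801 to 7913), the carboxypeptidase gene svr at 1548 FPKM (547 to 1860), the amidating enzyme gene Phm at 1040 FPKM (98.6 to 1348), the convertase gene amon at 978 FPKM (366 to 1195) and the vesicle protein gene Syt4 at 407 FPKM (115 to 525). Dh44 was thus at a median of 11.4 times 7B2 and 70.0 times amon within a library, and Gpb5 at 0.488 times 7B2 and 3.45 times amon. The convertase and the amidating enzyme act on Dh44, which is a short amidated peptide. Glycoprotein hormone subunits are larger folded proteins that are not amidated.

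The ratio of Dh44 to amon was the steadiest of the 7 ratios computed. It lay between 54.3 in library 4 and 104.8 in library 1, a 1.93-fold range over all 8 libraries, where Dh44 alone ranged 3.79-fold and amon alone 3.27-fold. Without libraries 1 and 8 the range of the ratio was 1.54-fold. The ratio of Gpb5 to amon, in contrast, ranged 8.33-fold, from 1.30 in library 3 to 10.8 in library 1, and 3.66-fold without libraries 1 and 8. Gpb5 kept closer to 7B2, with a ratio between 0.308 in library 3 and 0.809 in library 1, a 2.63-fold range, or 2.30-fold without libraries 1 and 8. The ratio of Dh44 to 7B2 ranged 2.76-fold, from 5.61 in library 5 to 15.4 in library 2. With the amidating enzyme gene Phm, Dh44 was the less steady of the hormone genes. Its ratio to Phm ranged 8.10-fold, or 3.29-fold without libraries 1 and 8, and that of Gpb5 ranged 3.35-fold, or 2.23-fold without them.

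The same shows in correlations of log2(FPKM + 1) over the 8 libraries, given as a description. Dh44 had a Pearson correlation of 0.886 with amon, 0.710 with 7B2, 0.629 with Phm and 0.601 with svr. Gpb5 had 0.463 with amon, 0.926 with 7B2, 0.908 with Phm and 0.841 with svr. Over the 6 libraries without 1 and 8, Dh44 stood at 0.830 with amon, 0.0823 with 7B2, -0.108 with Phm and -0.023 with svr. Gpb5 stood at 0.330 with amon, 0.956 with 7B2, 0.886 with Phm and 0.488 with svr. Without these libraries the values of Dh44 with 7B2, Phm and svr were thus near 0 and that of Gpb5 with svr was lower, while those of Dh44 with amon and of Gpb5 with 7B2 and Phm were 0.830 or more. Whether the 2 hormone genes differ in these relations was not tested.

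**Figure D3:**
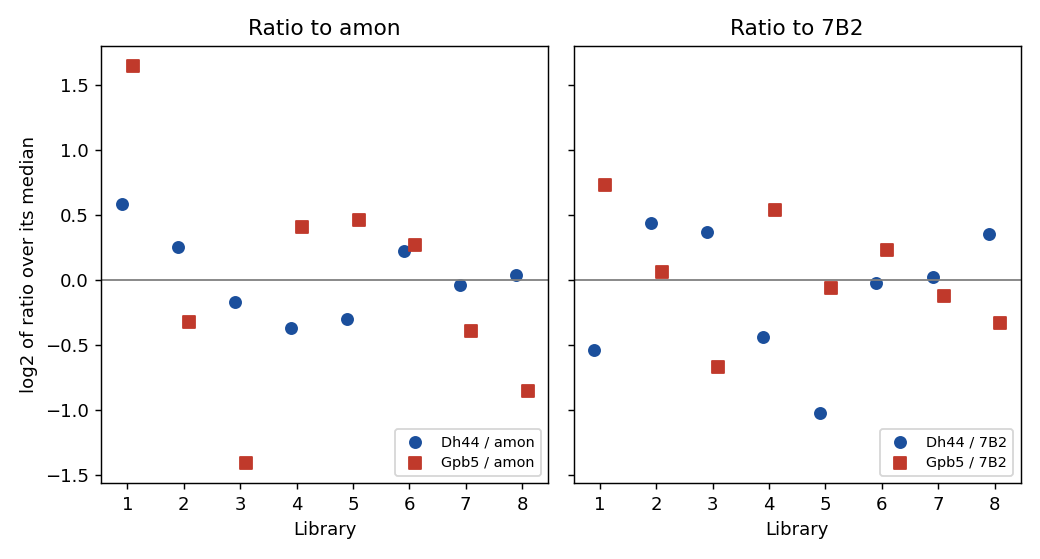
Ratios of Dh44 and of Gpb5 to amon (left) and to 7B2 (right) in each of the 8 libraries, as log2 of the ratio over its median across libraries, so 0 is the median library. On the left the Dh44 points stay nearer to 0 than the Gpb5 points, which reach from library 3 at the bottom to library 1 at the top, and on the right both spread alike.

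The genes whose levels ran most like those of Dh44 over the 8 libraries were sought among the other 1299 genes at 1 FPKM or more in every library. They were Fas2, a cell adhesion molecule of neurons (Pearson 0.945), Dp1, an RNA-binding protein (0.945), su(w[a]), a splicing regulator (0.944), lark, another RNA-binding protein (0.94), and NAT1, a translation factor (0.937). Fas2, the most abundant of them, was at 133 FPKM in library 8 and at 798 FPKM in library 2, the same lowest and highest libraries as Dh44. For Gpb5 the closest were Sumo, the small ubiquitin-like modifier (0.987), Dhpr, dihydropteridine reductase (0.974), the heterochromatin protein 1a gene FBgn0003607 (0.971), Atpalpha, the sodium pump catalytic subunit (0.967), and CG40228 (0.964). Sumo, for example, was at 223 FPKM in library 8 and 322 in library 3, where Gpb5 is low, and at 638 FPKM or more in the other 6 libraries. No gene was on both lists. In all, 10 genes for Dh44 and 27 for Gpb5 had a Pearson value above 0.9, out of 1299 each. With 8 libraries and so many genes, high values arise readily, and 0 of the 5 for Dh44 and 2 of the 5 for Gpb5 were still among the 5 closest without libraries 1 and 8.

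Gpa2, the alpha subunit that pairs with Gpb5, was listed at 0 in all 8 libraries, as were 30.1% of all genes. The gene (FBgn0261386) is annotated on an unplaced scaffold of the assembly, on the minus strand from 3093 to 3557, with 407 bp of exon in 2 blocks. Of 5 measured genes that this annotation puts on unplaced scaffolds, 2 had a value above 0 in any library. One of these is klhl10 on the same scaffold as Gpa2, with a median of 0.211 FPKM and a highest value of 1.72. The scaffold as a whole was thus not at 0, but whether reads of Gpa2 could be assigned in the authors' genome build is unknown here. Gpb5 above 699 FPKM beside a partner subunit listed at 0 is the plainest contrast within the set, and it does not show that Gpa2 was absent.

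Dh44-R1, a receptor for Dh44, divided the libraries. It was at 36.6 FPKM in library 2, 35.0 in library 4, 40.0 in library 6 and 28.2 in library 7, and it was listed at 0 in libraries 1, 3, 5 and 8. The values above 0 lie close together and none falls between 0 and 28.2 FPKM. The median over all 8 libraries, 14.1 FPKM, is midway between the groups and describes no library. Detection in exactly 4 libraries places Dh44-R1 at the limit of the rule, and its call ended when any of libraries 2, 4, 6 or 7 was left out or when 6 libraries were required. The gene (FBgn0033932) lies on the plus strand of chromosome 2R from 14378097 to 14385359, with 2475 bp of exon in 12 blocks. No other annotated gene overlaps these exons.

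The 4 libraries with a Dh44-R1 value were the 4 with the most genes listed above 0, at 5641 in library 2, 5774 in library 4, 5431 in library 6 and 5663 in library 7. Library 5, with Dh44-R1 at 0, followed closely at 5386, and libraries 3, 8 and 1 had 4630, 4295 and 2679. The match did not hold for genes at 1 FPKM or more. By that count library 5, at 4904, lay above library 6, at 4807, and under libraries 2, 4 and 7, at 5093, 5256 and 5088. The neuronal RNA-binding gene elav also had libraries 2, 4, 6 and 7 as its 4 highest, at 49.6, 105.1, 31.7 and 26.7 FPKM. It was at 4.21 FPKM in library 5, 1.40 in library 3, 1.11 in library 1 and 0.821 in library 8. This gene was singled out after its values were seen, and its exons overlap those of lncRNA:enrr on the same strand and of arg on the other, so its value is uncertain. Of the 9 measured neuron markers, 3 had libraries 2, 4, 6 and 7 as their 4 highest, namely elav, Appl and Syn, the gene of the vesicle protein synapsin. Syn was at 43.4, 34.6, 46.0 and 53.9 FPKM there, and at 12.4 FPKM in library 5, 5.50 in library 8, 2.96 in library 3 and 0 in library 1. The other 6 ordered the libraries otherwise, for example fne, which was highest in library 3 at 789 FPKM, and Snap25, a vesicle fusion protein, highest in library 1 at 319 FPKM. A pattern of on and off is common at this level: of 1581 genes with a mean between 10 and 25 FPKM, 429 (27.1%) were listed at 0 in 4 or more libraries. Of 756 genes at 1 FPKM or more in exactly 4 libraries, 50 (6.61%), Dh44-R1 among them, had these same 4. The part of library complexity in the Dh44-R1 values was not tested.

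**Figure D4:**
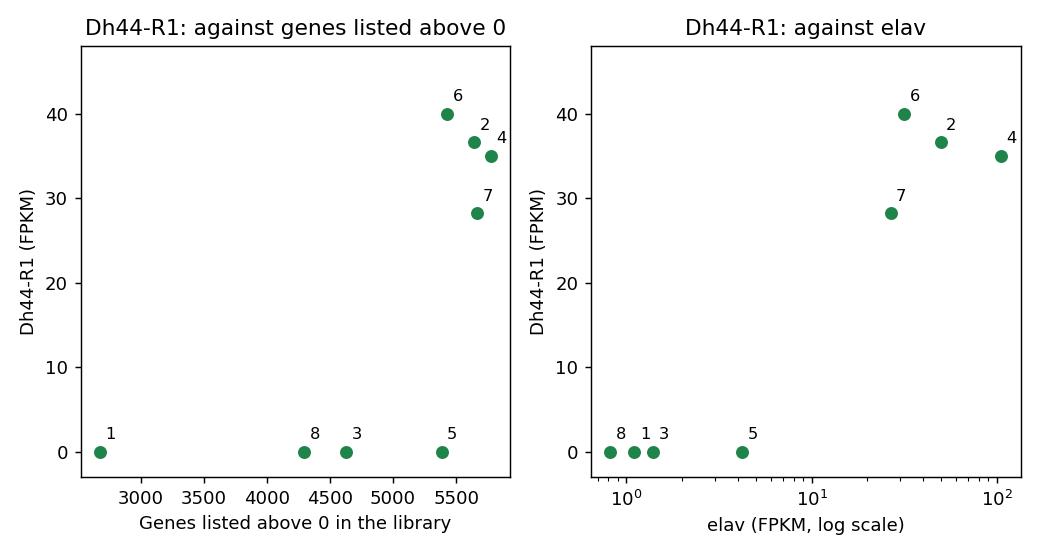
Dh44-R1 in FPKM against the number of genes listed above 0 in the library (left) and against elav in FPKM on a logarithmic axis (right), 1 point per library with its number. Libraries 2, 4, 6 and 7 lie at 28.2 to 40.0 FPKM of Dh44-R1 and are the 4 highest on both horizontal axes, and libraries 1, 3, 5 and 8 lie at 0.

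Dh31, the calcitonin-like hormone, was at 21.9 FPKM in library 1, 1.16 FPKM in library 3 and 0.450 FPKM in library 6, and was listed at 0 in the other 5. Library 1 stands alone, and without it no library exceeds 1.16 FPKM. Dh31 is known from a set of clock neurons of the brain, so clock genes were set beside it. In library 1, the clock genes Clk, tim, vri, per and cyc were listed at 0, cry was at 1.60 FPKM, cwo at 0.661 FPKM and Pdp1 at 15.1 FPKM. The 8 clock genes together held 0.00214% of its summed FPKM, the lowest share of any library, against 0.0421% in library 8, the highest. Library 1 also had the fewest genes above 0 of all libraries, and the source of its Dh31 value was not tested. The gene (FBgn0032048) lies on the minus strand of chromosome 2L from 8491868 to 8506845, with 1295 bp of exon in 5 blocks. No other annotated gene overlaps these exons. Between Dh44-R1 and Dh31 the order was not the same in every library: Dh44-R1 was higher in 4 libraries, Dh31 in 2, and both were at 0 in 2. Between Dh31 and Gpa2, Dh31 was higher in 3 and both were at 0 in 5.

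Other hormones and receptors with related roles were sparse among the measured genes. Of 5 further peptides and receptors of fluid balance, only the leucokinin receptor gene Lkr had a value, at 13.9 FPKM in library 4 and listed at 0 in the other 7. Of 3 genes listed as other secretin-family receptors and Pdf, only the peptide gene Pdf was measured, and none of the receptors. Pdf was detected, with a median of 38.3 FPKM (0 to 89.5) and 2 libraries listed at 0. Pdf marks a known group of clock neurons and its receptor also responds to Dh31 in fly cells. Of the relatives of Lgr1 and its hormone, 3 of 7 were measured: rk, the bursicon receptor, was detected at a median of 7.13 FPKM (0 to 12.4), and Lgr3 and Ilp7 were listed at 0 in all 8 libraries. Pdf and rk were thus both found at levels far under those of Dh44 and Gpb5.

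Genes of a broad list drawn up around G protein and cyclic AMP signalling were mostly detected where measured. Of 24 genes in the G protein and cyclic AMP list, 21 were measured, and no G protein alpha subunit was among these. Of the 21, 17 (81.0%) were detected, beside 41.2% of all genes, and 7 reached 1 FPKM in all 8 libraries. Among the marker lists of other cell types the same rule called from 37.5% (muscle) to 90% (photoreceptor). The share alone thus does not set the signalling genes apart. The median of the G protein and cyclic AMP list was 17.3 FPKM, beside a median of 0 over all genes. The highest was the G protein subunit gene Ggamma1 at a median of 696 FPKM (465 to 978). Next came Pka-R1, a regulatory subunit of protein kinase A, at 330 FPKM (52.6 to 511), Gbeta13F, another G protein subunit, at 321 FPKM (60.2 to 428), the transcription factor gene CrebA at 118 FPKM (15.8 to 224), which is known for driving secretory pathway genes, and the phosphodiesterase gene Pde1c at 59.2 FPKM (18.5 to 71.7). Adenylyl cyclases were lower. Ac3 had a median of 27.5 FPKM (0 to 89.7), Ac78C of 4.01 FPKM, Ac13E of 2.87 FPKM and Ac76E of 0.912 FPKM, while rut, the calcium-responsive cyclase, reached 1 FPKM in 3 libraries. Ac76E was at 15.8 FPKM in library 1 and 15.5 in library 8, the libraries with the largest fat body shares, and at no more than 2.80 FPKM elsewhere. The cyclases were named as a group after their values were seen. Library 1, where Dh44-R1 was at 0, listed Ac3, Ac13E, Ac78C and rut at 0 as well, whereas library 5, also without Dh44-R1, had Ac3 at 43.6 FPKM.

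**Figure D5:**
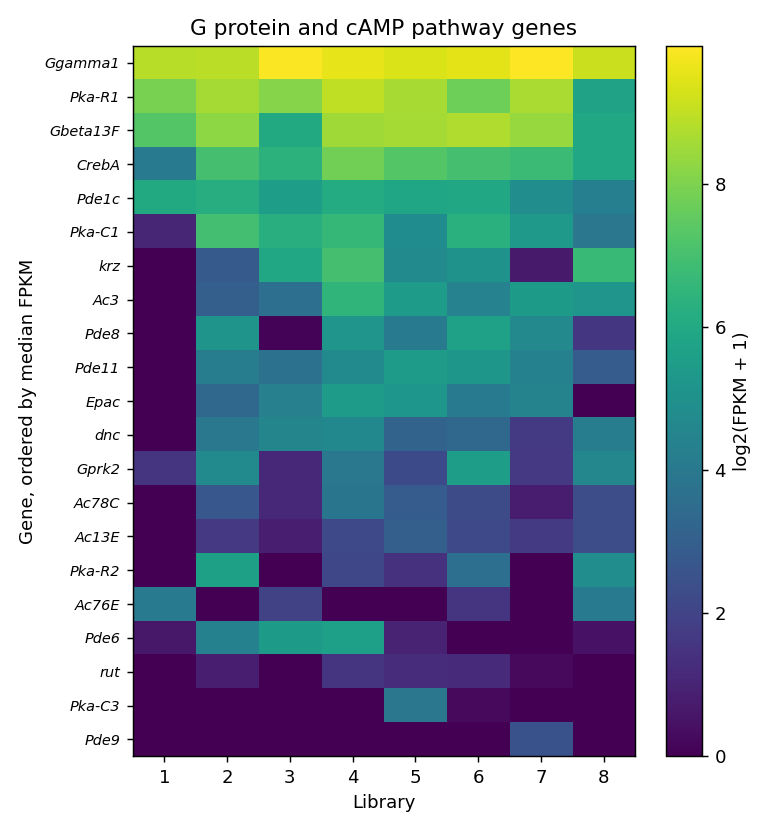
log2(FPKM + 1) of the 21 measured G protein and cyclic AMP genes (rows, ordered by median FPKM) in the 8 libraries (columns), darkest at 0. Ggamma1, Pka-R1 and Gbeta13F are high in every library, and library 1 has the most genes at 0.

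The libraries also held transcripts of neighbouring or unrelated cell types, which were set beside the 2 abundant hormone genes. Markers of insulin cells, which neighbour Dh44 neurons in the brain, were at a median of 2724 FPKM for Ilp2 and 543 FPKM for Ilp3, and 3 of 4 were detected. Their summed share was highest in library 3 at 3.84%, against 0.114% to 0.698% in the other 7. Library 3 is where Gpb5 was lowest but for library 8. However, library 8, with the lowest Gpb5 of all at 699 FPKM, had the smallest insulin cell share, at 0.114%. In library 3 Dh44 was near its median, and without that library the median of Gpb5 moved to 3700 FPKM. Whether insulin cell transcripts have a part in the low Gpb5 of library 3 was not tested. Akh, the hormone gene of the corpora cardiaca, had a median of 62.9 FPKM (0 to 516). Photoreceptor markers, of which 9 of 10 were detected, held 0.0842% to 0.846%, led by ninaE (median 925 FPKM) and Arr2 (399 FPKM). In library 8, where that share was highest, the opsin gene Rh5 alone was at 3995 FPKM, and the share without it was 0.419%. Glial markers did not exceed 0.0379%, hemocyte markers 0.0349% and muscle markers 0.0174% in any library. Among those lists Gs2 (56.7 FPKM) and nrv2 (40.2 FPKM), crq (66.6 FPKM) and srp (11.0 FPKM), and Mlc2 (22.4 FPKM) and wupA (12.7 FPKM) had the highest medians, and the defining glial gene repo was at 0.378 FPKM. Clock genes, led by Pdp1 (50.4 FPKM) and cwo (15.2 FPKM), and the housekeeping genes RpL32 (1485 FPKM) and alphaTub84B (1339 FPKM) were measured in the same way. Dh44 lay above every one of these genes in each library except library 8, where Yp1, at 28705 FPKM, was higher.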

How the data were processed

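RNA from 8 libraries of 1 group was analysed. The authors deposited FPKM per gene; per the series text in the labels, reads were cleaned of low-quality sequence, adaptors and primers and mapped to the Drosophila genome, and per the submitters' processing notes TopHat was used. For the version, build, annotation, FPKM program and use of strand, nothing is given in the sources used here. FPKM depends on what else is in a library, and depth is unknown, so no counting interval is given. Of 11773 identifiers, 11646 matched a symbol. Places and exons are from Ensembl release 115 (BDGP6.54), which may not be the authors' build. Without strand, reads of overlapping exons cannot be separated. Apart from elav, named genes whose exons overlap another gene there are rk, Pde1c, svr, Phm, Yp1, crq, srp, su(w[a]), lark, Dhpr, FBgn0003607, Lgr3, Ilp7, Fbp2, Tbp, tim, per, cry, Ac13E, rut, Syn and repo, and their values are uncertain to that extent.

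With 1 group and no named animals, no test was made; values are medians and ranges over n = 8 libraries, which may be technical repeats. Logarithms are log2(FPKM + 1). The ranking by correlation was run on simulated data with planted near copies of Dh44, which checks the calculation and not the genes named. Python 3.11.15, numpy 2.4.6 and pandas 2.3.3 were used.

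The members and gene lists were chosen with earlier results of these data known. Named were all members, up to 5 detected genes by median per list (2 in marker and housekeeping lists), and the 5 genes most like each member found in all 8 libraries; others are named for a contrast, after their values were seen, as were the ratios to 7B2, Phm and amon. Alternatives were other thresholds, library minimums, pseudocounts and scalings, and leaving out libraries.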

Additional observations from a re-analysis of the deposited data

Results flagged for a closer look

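For 48 items, namely the genes named by rule with any value above 0 and 3 ratios (Dh44 to Gpb5, Dh44 to 7B2 and Gpb5 to 7B2), the library at either end of the range was set against the other 7. In 7 of them the gap to the nearest library exceeded 0.526 of the whole range. Chance flags about 1 in 20 such groups under a normal distribution, and FPKM is skewed towards high values.

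Among the hormone genes this was Dh31, at 21.9 FPKM in library 1, against 1.16 FPKM in the next library. Neither Dh44, Gpb5, Dh44-R1 nor any of the 3 ratios stood out in this way. The ratios to Phm and amon were not among the items, and some of them had a library far from the rest. Gpb5 to amon was 10.8 in library 1, against 4.75 in library 5, the next, and a lowest value of 1.30. Dh44 to Phm was 267 in library 8, against 108 in library 2, the next, and a lowest value of 32.9. In library 3, Ilp3 was at 10275 FPKM, with 2566 FPKM in the next library, and wupA, a muscle troponin gene, at 60.8 FPKM. In library 8, cwo was at 100.4 FPKM, ninaE at 2543 FPKM, Arr2 at 891 FPKM and srp at 45.5 FPKM. Library 8 is also the lowest for Dh44 and Gpb5.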

How the results depend on the processing

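Of 135 recomputed values, 128 stayed within the spread between libraries or within 1.5 times the count reported. This tally is a loose one. The medians of Gpa2 and Dh31 were at 0 in all 11 alternatives each and could not move. The Dh44-R1 median counted as unmoved although it ran from 0 to 31.6 FPKM, against 14.1 FPKM as reported. So did the number of members detected, which ran from 2 to 4 against 3 as reported. Rescaling each library to a common sum without 380 ribosomal protein and short genes gave medians of 91791 for Dh44 and 5377 for Gpb5 (in units of the new sum), larger because abundant genes left the total. At 0.1 FPKM, 5 glial and 7 muscle markers were detected in place of 3 and 3. Of the 5 genes most like Dh44, 0 were still among the 5 without libraries 1 and 8, and of those most like Gpb5, 2, or 3 with no filter on low values. Leaving out each library in turn gave medians of 56776 to 63370 FPKM for Dh44, 3289 to 3700 FPKM for Gpb5, 0 to 28.2 FPKM for Dh44-R1 and 19.7 to 25.9 for the ratio of Dh44 to Gpb5, with 2 to 3 members detected. No paired analysis was possible because there is a single group.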
